A study of Mus musculus with 12 samples.

Results

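The genes for the proteins of the cytosolic ribosome were read across newborn mouse epidermis and skin with and without keratin 1. Members were the genes whose annotated symbol is Rpl or Rps followed by a number and an optional a, x, l or digit ending, or Rplp0 to Rplp2, with the Rps6k kinases left out. A gene also needed a probe with a detection p under 0.05 on at least 3 of 12 arrays, and was read by its brightest such probe. This gave 61 members, 37 of the large and 24 of the small subunit, among 12099 genes measured. Of 62 matching symbols, 1 was not kept: the probe of Rpl17 was detected on 1 array, with signals of 84.7 to 104.6. The arrays form 4 groups of 3, all from newborn (postnatal day 0) mice on a C57BL/6 background: epidermis of Krt1-/- mice, epidermis of Krt1+/+ mice, full-thickness skin of Krt1-/- mice, and full-thickness skin of Krt1+/+ mice. Krt1-/- animals lack keratin 1, a keratin of the differentiating layers of the epidermis, and skin holds epidermis together with dermis and the tissue under it. The labels do not say which part of Krt1 was deleted or whether each array stands for its own animal, so p-values here measure only how far these samples scatter, and that scatter may be technical.

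Ribosomal proteins of the small subunit help to bind and decode the messenger RNA, and those of the large subunit surround the centre where peptide bonds form. Most are made in nearly all cells, at levels that follow growth, and many of their messenger RNAs start with a run of pyrimidines (the 5′ TOP motif) through which the mTOR kinase and Larp1 set their translation. A few members have paralogs with tissue-restricted use, and some act outside the ribosome, as Rpl23 does when it binds Mdm2, the ubiquitin ligase of p53. In mouse mutants, too little Rps19 or Rps20 darkens the skin through p53 and Kit ligand in keratinocytes.

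The stretches around the start of transcription are shown for the members on which the results turn: Rpl22, which passed in the average over both tissues; Rpl22l1 and Rps3a1, with the largest opposite genotype differences in epidermis and skin; Rps15 and Rps26, which ran the other way; and Rpl3l, with the largest difference between tissues. Each runs from 60 bases before to 30 bases after the first start that RefSeq lists, 5′ to 3′ on the strand of the gene (build GRCm38.p6). Capitals mark CTTTC, the core of a pyrimidine tract, on that strand, or CGGAAG, a site letter pattern of ETS factors, on either strand.
Rpl22, chr4:152325666-152325755, plus strand: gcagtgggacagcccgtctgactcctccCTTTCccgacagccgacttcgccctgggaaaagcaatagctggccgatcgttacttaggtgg
Rpl22l1, chr3:28805448-28805537, plus strand: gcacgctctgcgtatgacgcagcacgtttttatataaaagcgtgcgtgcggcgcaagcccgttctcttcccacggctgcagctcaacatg
Rps3a1, chr3:86142639-86142728, minus strand: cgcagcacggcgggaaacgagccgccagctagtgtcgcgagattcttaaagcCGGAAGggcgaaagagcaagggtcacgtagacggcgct
Rps15, chr10:80292371-80292460, plus strand: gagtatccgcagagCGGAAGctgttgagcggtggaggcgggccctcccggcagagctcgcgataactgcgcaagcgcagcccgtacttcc
Rps26, chr10:128626477-128626566, minus strand: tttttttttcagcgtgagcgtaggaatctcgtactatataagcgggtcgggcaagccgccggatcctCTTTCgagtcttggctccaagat
Rpl3l, chr17:24727766-24727855, plus strand: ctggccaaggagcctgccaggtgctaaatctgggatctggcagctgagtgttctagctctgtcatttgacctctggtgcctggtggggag
RefSeq promoter sequences matched 51 of the 61 members. CTTTC lay between 50 bases before and 50 bases after the start in 26 of them (51.0%), against 14.6% of all 27025 genes with such a sequence. CGGAAG, on either strand from 250 bases before to 50 bases after the start, lay in 35 (68.6%), against 18.8% of all genes. In this wider window Rps26 also held CGGAAG, while Rpl22l1 and Rpl3l held neither pattern in the windows searched. The matches are letters in a window and not measured binding sites.

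The 12 arrays had median signals of 93.3 to 105.1 intensity units and detected 17184 to 19931 of 45281 probes (37.9% to 44.0%). Their number limits the precision of every value below. The targeted gene had signals of 1107, 2921 and 987 on the arrays labelled Krt1-/- epidermis, against 1417, 2404 and 5954 in Krt1+/+ epidermis, so these groups overlapped. In skin, Krt1 read 280, 319 and 183 in Krt1-/- and 4329, 5915 and 1794 in Krt1+/+. Whether that probe lies inside the deleted stretch was not stated by the labels, and each direction in epidermis, each average over tissues of the genotype differences and each comparison of them between tissues depends on those labels. The arrays also differed by a column set: Krt1+/+ epidermis and Krt1-/- skin stand in columns 1 to 6 of the samples in both deposited tables, Krt1-/- epidermis and Krt1+/+ skin in the last 6. Over the 16240 probes undetected on every array, groups of the same set correlated at a mean of −0.03 (range −0.09 to 0.06) and groups of different sets at −0.14 (range −0.22 to −0.06). Genotype and column set cannot be told apart within a tissue. Averaging the genotype differences of both tissues, or the tissue differences of both genotypes, removes any shift of the sets that is additive in log2.

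The ribosomal protein genes were mostly bright and steady. Of the 61 members, 55 were detected on all 12 arrays, and the median member read 12.42 to 13.09 on the log2 scale of normalized intensity, depending on the array. The median standard deviation (SD) within a group was 0.144 over members and 0.259 over all genes, both on the log2 scale. In 14 members, among them Rps2, Rpl41 and Rps29, the probe averaged at least 50% of the array's brightest probe. Their differences may be compressed, which was not tested. Of these 14, 1 passed as higher in Krt1-/- epidermis (Rpl35, 0.49) and 1 as lower (Rpl23, −0.72). At the dim end 9 members averaged under 7 over the 12 arrays. Of these, Rpl7a, Rps4l and Rps15a were detected on every array, and Rpl3l was dim in epidermis and not in skin. The 3 dimmest probes belonged to Rpl6, Rps23 and Rpl39l. Brightness depends on the probe and does not order the genes by their amount of RNA. Many ribosomal protein genes have near-identical processed pseudogenes, so a probe's reading may not be of 1 locus. In these tissues, fewer cells of a type and less RNA per cell cannot be told apart.

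**Figure D1:**
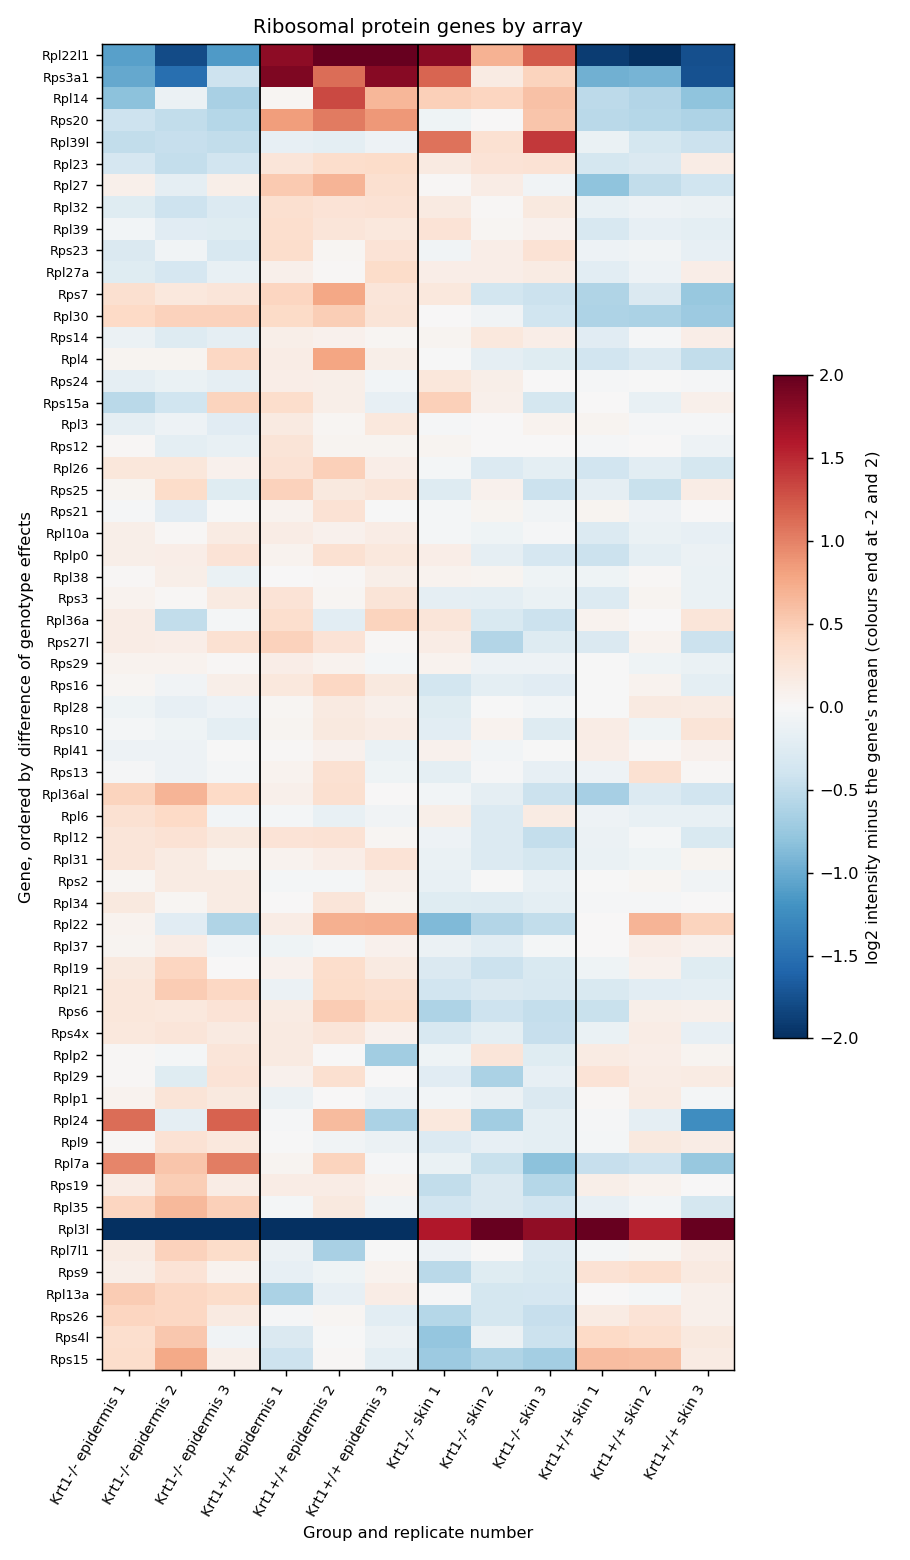
Each of the 61 ribosomal protein genes (rows, ordered by the difference of its genotype effects) on each of the 12 arrays (columns), as log2 normalized intensity minus the gene's mean, with colours ending at −2 and 2. Rpl22l1 and Rps3a1 at the top and Rps15 at the bottom follow the column sets, with Krt1-/- epidermis like Krt1+/+ skin, while Rpl3l follows the tissue.

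Averaged over both tissues, 1 ribosomal protein gene changed with the loss of keratin 1: Rpl22, a large subunit protein that binds RNA and is needed for T cell development in mice. Its log2 intensity was 10.40, 10.11 and 9.72 on the arrays labelled Krt1-/- epidermis, against 10.48, 11.04 and 11.05 in Krt1+/+ epidermis. In skin it was 9.44, 9.73 and 9.84 in Krt1-/- and 10.34, 11.00 and 10.77 in Krt1+/+. All Krt1-/- arrays lay below all Krt1+/+ arrays of their tissue. The mean of both differences was −0.91 (95% confidence interval −1.26 to −0.55), or 1.87-fold lower in Krt1-/- (limma, Benjamini-Hochberg adjusted p = 0.0018). It fell by 0.78 in epidermis (adjusted p = 0.022) and by 1.03 in skin (adjusted p = 0.0051). The average also rests on the epidermis labels: with them exchanged it would follow the difference of the effects, in which Rpl22 did not pass (0.25, adjusted p = 0.61) and 18 members did. In the average as labelled, its adjusted p stayed between 0.000668 and 0.00877 over 24 alternative settings. The epidermis call alone was lost with median centring of the arrays (adjusted p up to 0.0893 over the alternatives), and without Krt1-/- epidermis replicate 2 (0.053) or 3 (0.0893) or Krt1+/+ epidermis replicate 2 (0.082) or 3 (0.0752).

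In that average 0 members were higher and 1 was lower, where 10.9% and 13.2% of all genes were, and 1.64% of members against 24.2% of all genes passed in either direction. At an unadjusted p under 0.05, 10 members stood against 36.2% of all genes. Median centring gave 1127 genes higher and 721 lower in place of 1324 and 1601, and 1 member higher and 1 lower. Without Krt1-/- skin replicate 3 the counts of members were 2 higher and 2 lower, without Krt1-/- skin replicate 2 there was 1 higher, and without Krt1+/+ skin replicate 1 there were 2 lower. Signals without background correction gave 2 higher (Rpl30 and Rpl36al) and 7 lower (Rpl22, Rpl28, Rpl29, Rpl3, Rpl32, Rps10 and Rps16). The median member changed by −0.08 and the median gene by −0.05. The sign for the median member depended on the normalization: with median centring it lay above 0. The median size of the change, whatever its sign, was 0.115 for members and 0.238 for all genes. Of the 61 members, 40 lay below 0 and 21 above. In this average hair follicle markers were lower for 4 of 6 (median −0.96) and endothelial markers for 3 of 6 (median −0.48). Mast cell markers were lower for 2 of 5 and fibroblast markers for 2 of 8, and 0 markers of these lists were higher. The part of cell makeup in the genotype average was not tested.

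**Figure D2:**
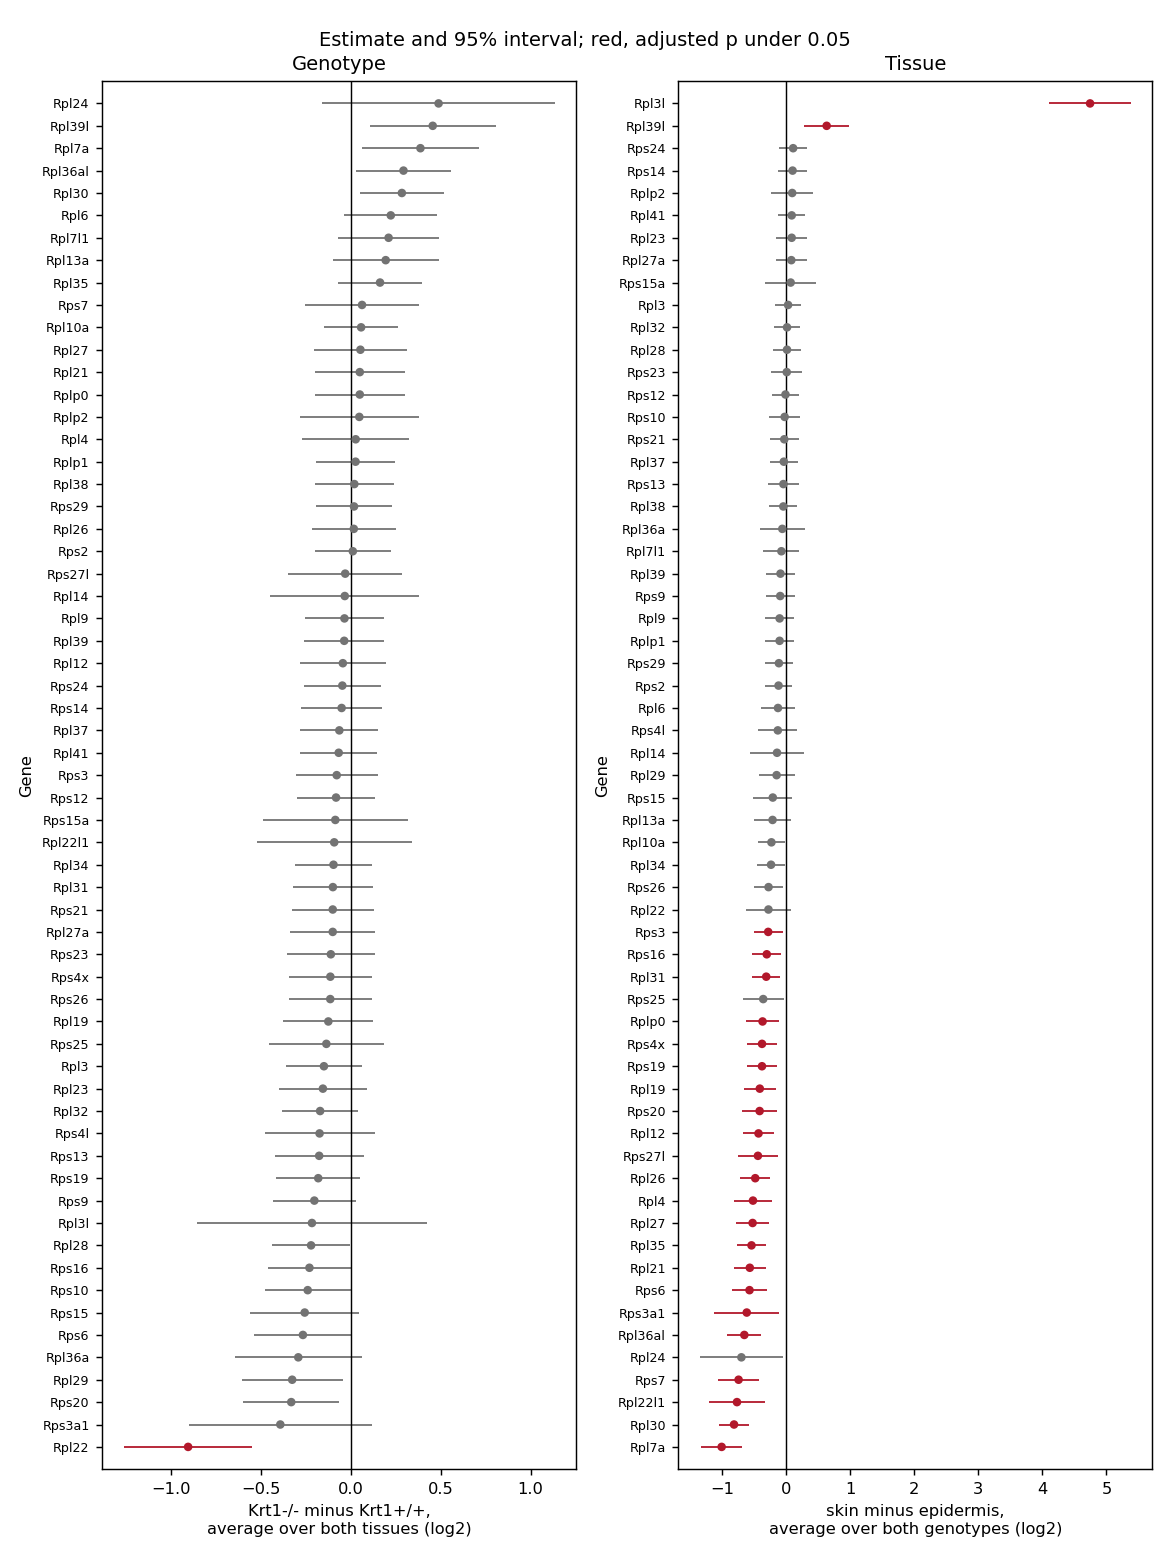
Estimates with 95% confidence intervals for the 61 genes: left, Krt1-/- minus Krt1+/+ averaged over both tissues (log2); right, skin minus epidermis averaged over both genotypes (log2). Red marks an adjusted p under 0.05, which 1 gene reached on the left, Rpl22 at −0.91, and 24 on the right, 22 of them below 0.

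Apart from Rpl22, the members with known roles outside protein synthesis or in mouse mutants, read by their brightest probes, did not pass in the genotype average. Rps20, whose loss of function darkens mouse skin, came nearest (−0.33, interval −0.60 to −0.06, adjusted p = 0.069), but was undetected on all arrays labelled Krt1-/- epidermis and on all of Krt1+/+ skin. Its average joins a fall in epidermis and a rise in skin (difference −2.14), and so describes neither tissue. Rps19, mutated in another dark-skin mouse, changed by −0.18 (interval −0.42 to 0.05), and Rps6, the substrate of the S6 kinases, by −0.27 (interval −0.54 to 0.00, adjusted p = 0.14). Rpl24 had the highest estimate, 0.49, with an interval of −0.16 to 1.13. In mice its mutation gives the Belly spot and tail phenotype. Its 3 values ranged from 7.68 to 9.04 on the arrays labelled Krt1-/- epidermis and from 7.24 to 8.49 in Krt1+/+ epidermis, so its arrays overlapped. Rpl38, whose mouse mutant has skeletal patterning defects, changed by 0.02 (interval −0.20 to 0.24) and Rps7 by 0.06 (−0.25 to 0.38). A dimmer second probe of Rpl38, described below, passed when used for the gene (1.35, limma, adjusted p = 0.00015). Rpl13a, part of an interferon-activated inhibitor of translation in human cells, changed by 0.19 (−0.10 to 0.49). Rpl23 changed by −0.16 (−0.40 to 0.09), and the stalk proteins Rplp0, Rplp1 and Rplp2, which recruit elongation factors, by 0.05, 0.03 and 0.05.

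Within epidermis 10 members were lower and 5 higher in Krt1-/-, 16.4% and 8.2% of members, where 16.8% and 15% of all genes were. The falls were led by Rpl22l1, the paralog of Rpl22, whose messenger RNA the Rpl22 protein is known to repress in mouse cells. Its log2 intensity was 6.32, 5.63 and 6.28 on the arrays labelled Krt1-/- epidermis, against 9.20, 9.70 and 9.65 in Krt1+/+ epidermis. It fell by 3.45 on the log2 scale, 10.9-fold (interval −4.06 to −2.83, adjusted p = 3.1e-06). Rps3a1, a small subunit protein at the path of the messenger RNA, had 8.95, 8.47 and 9.58 on the arrays labelled Krt1-/- epidermis and 11.85, 11.11 and 11.81 in Krt1+/+ epidermis. It fell by 2.59, or 6.02-fold (interval −3.31 to −1.87, adjusted p = 0.0001). For both genes the arrays of the genotypes were well apart.

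Rps20 and Rpl14 fell in probes near the detection limit. Rps20 was detected on 6 arrays in all and met the detection filter through the groups where it was high. Rps20 read 4.43, 4.34 and 4.27 on the arrays labelled Krt1-/- epidermis, where it was undetected, against 5.67, 5.88 and 5.71 in Krt1+/+ epidermis, at least 2.10-fold lower (adjusted p = 8.2e-05; the bound sets the undetected group at the detection limit of its arrays). Rpl14, a large subunit protein, was detected on 1 of 3 arrays labelled Krt1-/- epidermis and read 4.34, 5.04 and 4.51 there, against 5.19, 6.48 and 5.82 in Krt1+/+ epidermis (−1.20, adjusted p = 0.0047). Rpl23 read 13.27, 13.14 and 13.23 against 13.86, 13.97 and 13.98 in Krt1+/+ epidermis (−0.72, adjusted p = 0.0042). The other falls that passed were Rpl22, Rpl32 (−0.60), Rpl27 (−0.50) and Rpl39 (−0.44), and Rps23, which was undetected on all 3 arrays labelled Krt1-/- epidermis and at least 1.02-fold lower there. The rises were Rpl7a (0.69), Rpl13a (0.65), Rps15 (0.61), Rpl7l1 (0.59) and Rpl35 (0.49). The calls of Rpl22l1, Rps3a1, Rps20, Rpl14 and Rpl23 held under every alternative that gave 1 value per gene, and the other 10 were lost under at least 1. Of the 4 probes of Rpl23 read on their own, 1 was higher in Krt1-/- epidermis (0.68) and 1 did not pass (−0.19). The count of rises was 2 without Krt1-/- epidermis replicate 1 or Krt1+/+ epidermis replicate 3, and 1 without Krt1-/- epidermis replicate 2 or Krt1+/+ epidermis replicate 1. The count of falls was 6 without Krt1-/- epidermis replicate 3. Hair follicle markers were lower in Krt1-/- epidermis for 3 of 6 (median −1.20), with summed linear levels of 2240 to 2823 against 5404 to 8267 in Krt1+/+ epidermis. Mast cell markers were higher for 3 of 5 (median 1.30; 591 to 1644 against 528 to 814 in Krt1+/+ epidermis), fibroblast markers for 2 of 8 with 1 lower (median 0.41), and macrophage and dendritic cell markers for 2 of 7 (median −0.22). Their part in these results was not tested.

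Within skin 7 members were higher and 7 lower in Krt1-/-, each 11.5% of members, where 14.4% and 16.2% of all genes were (23% of members and 30.7% of all genes in either direction). At an unadjusted p under 0.05 there were 17 members, against 41.4% of all genes. Skin arrays of the genotypes were apart for 13 members that were higher in Krt1-/- and 14 that were lower, against 19.5% and 23.9% of all genes. Rpl22l1 read 9.21, 8.11 and 8.64 in Krt1-/- skin, against 5.51, 5.03 and 5.65 in Krt1+/+ skin, a rise of 3.26, or 9.57-fold (interval 2.65 to 3.87, adjusted p = 4.4e-06). Rps3a1 read 11.14, 10.15 and 10.43 in Krt1-/- skin and 9.03, 9.05 and 8.25 in Krt1+/+ skin, a rise of 1.80, or 3.49-fold (interval 1.08 to 2.52, adjusted p = 0.0014). Both genes thus rose in Krt1-/- skin and fell in Krt1-/- epidermis. Rpl39l, a paralog of Rpl39 known from mouse testis, read 5.77, 4.99 and 6.11 in Krt1-/- skin and 4.56, 4.34 and 4.25 in Krt1+/+ skin (1.24, adjusted p = 0.0014). It was detected on all 3 arrays of Krt1-/- skin, on 1 of the 3 arrays of Krt1+/+ skin and on 0 in epidermis. Rpl39l thus met the detection filter only through the group where it was high, and its call is not independent of that filter. Rpl14 (1.13), Rps20 (0.74, at least 1.36-fold), Rpl27 (0.60) and Rpl30 (0.51) rose as well. The call of Rpl27 was lost without Krt1-/- skin replicate 2 or Krt1+/+ skin replicate 1 (adjusted p up to 0.0807), and that of Rpl30 in 10 of 25 settings, among them without any one of 5 skin arrays (all but Krt1-/- replicate 3).

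The falls in skin were led by Rps15, a small subunit protein near the decoding centre, with 11.03, 11.16 and 11.07 in Krt1-/- skin against 12.37, 12.36 and 11.91 in Krt1+/+ skin. It fell by 1.13, or 2.19-fold (interval −1.56 to −0.70, adjusted p = 0.00098), with no overlap of the arrays. Rpl22 (−1.03) was followed by Rps4l, an autosomal copy of the X-linked Rps4x, with 6.05, 6.70 and 6.38 in Krt1-/- skin against 7.22, 7.15 and 7.02 in Krt1+/+ skin (−0.76, adjusted p = 0.012, or 0.0581 without Krt1-/- skin replicate 1). Rps26, which lines the exit of the messenger RNA channel, read 12.52, 12.74 and 12.63 in Krt1-/- skin and 13.26, 13.36 and 13.18 in Krt1+/+ skin (−0.64, adjusted p = 0.0066). Rps9 (−0.63), Rpl29 (−0.53) and Rps19 (−0.51) fell as well. The call of Rpl29 was lost in 13 of 25 alternative settings (adjusted p up to 0.789), among them without any one of 5 skin arrays (all but Krt1-/- replicate 3), and that of Rps19 in 10, among them with replicate 1 or 3 of Krt1-/- skin left out, or replicate 1 or 2 of Krt1+/+ skin. Of the 14 calls in skin, 6 held in all 25 settings that gave 1 value per gene: Rpl14, Rpl22, Rpl22l1, Rpl39l, Rps20 and Rps3a1. For Rpl39l and Rps20 this is limited, as both met the detection filter through the groups where they were high. The count of falls was 4 without Krt1-/- skin replicate 1. With the arrays centred on their medians, 8 members were higher and 2 lower in Krt1-/- skin; centred on brighter genes that are not members, 13 were higher and 3 lower. The calls of Rps15, Rps26 and Rps9 were among those lost with median centring. Endothelial markers were lower in Krt1-/- skin for 5 of 6 (median −0.97), with summed levels of 1377 to 1769 against 2797 to 3748 in Krt1+/+ skin. Fibroblast markers were lower for 2 of 8 (median −0.81; 27161 to 28278 against 44599 to 48744) and mast cell markers for 4 of 5 (median −1.65; 6893 to 8644 against 12014 to 18012). Hair follicle markers were lower for 2 of 6 (median −0.83), with summed levels of 1922 to 5796 against 4723 to 6507 in Krt1+/+ skin. The part of these cell types in the changes of the members was not tested.

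**Figure D3:**
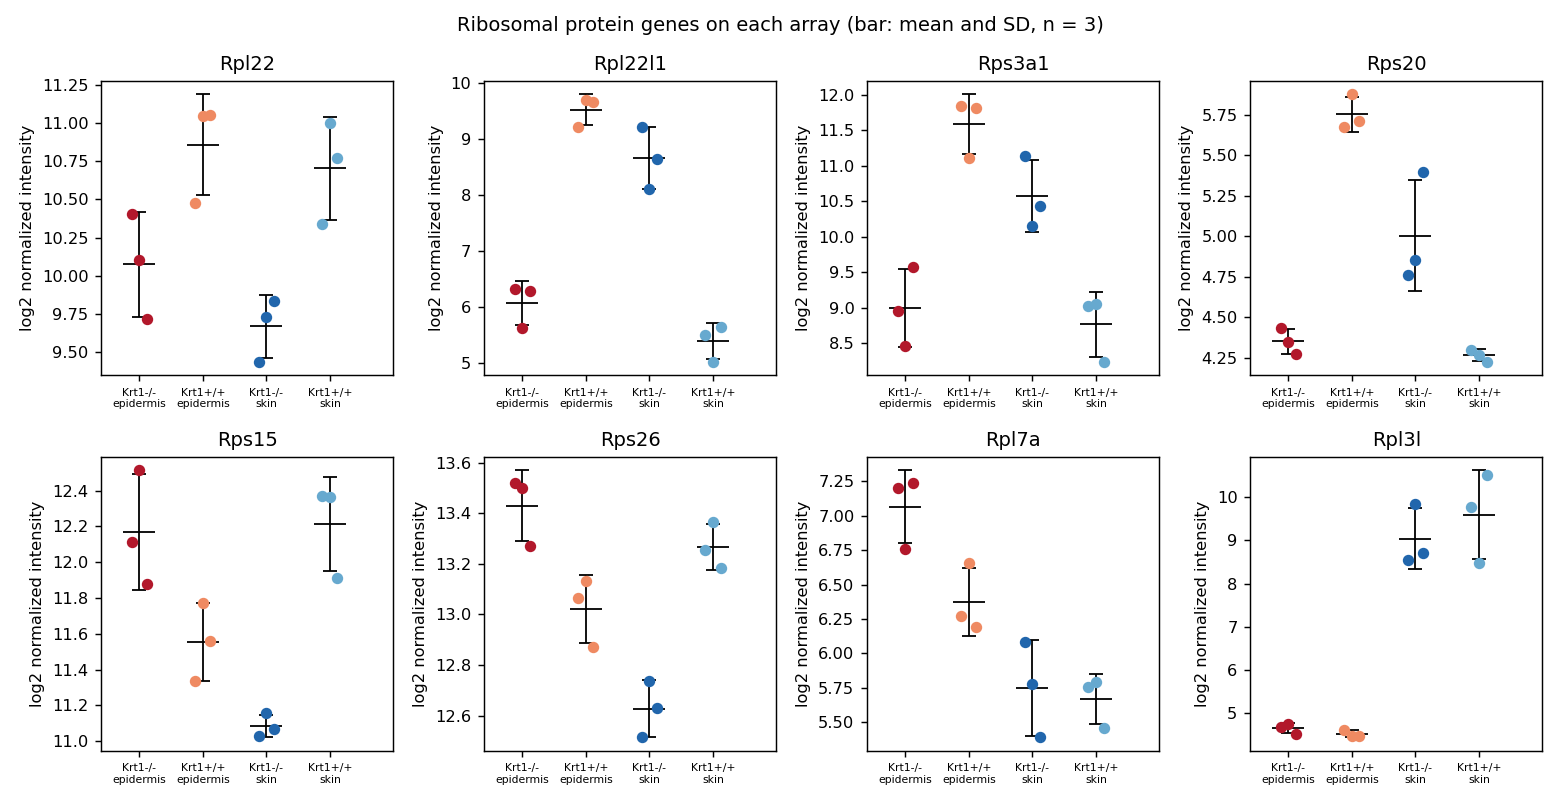
Log2 normalized intensity of 8 ribosomal protein genes on each array (points) with the mean and SD of each group (n = 3), Krt1-/- left of Krt1+/+ in each tissue. Rpl22 is lower in Krt1-/- in both tissues, Rpl22l1, Rps3a1 and Rps20 are lower in epidermis and higher in skin, Rps15 is higher in epidermis and lower in skin (Rps26 lower in skin), and Rpl7a and Rpl3l differ between the tissues.

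By the labels, the genotype differences of the members ran in opposite directions in the 2 tissues more often than in the same one. This rests on the labels of the epidermis arrays, where Krt1 overlapped: with those exchanged, every epidermis difference turns its sign, opposite becomes same, and the correlation below is of equal size above 0. Arrays of the genotypes did not overlap in either tissue, with opposite directions, for 15 members (24.6%, against 13.6% of all genes). The same direction in both tissues was seen for 2 members, Rpl22 and Rpl28, both lower in Krt1-/- (3.28%, against 4.82% of all genes), and for 0 higher (4.72% of all genes). Over the 61 members the genotype differences in epidermis and in skin correlated at −0.788, and over all genes at −0.05. The members share arrays, and the 2 sides share the column sets in opposite order. Such a correlation gives most weight to the largest changes, here Rpl22l1 (−3.45 in epidermis, 3.26 in skin) and Rps3a1. The median member changed in size by 0.24 in epidermis and 0.22 in skin. The correlation without those genes was not computed. The difference of the 2 genotype effects, which is also the contrast of the column sets, passed for 18 members, 10 of them lower in epidermis minus skin and 8 higher (29.5% in all, against 30.9% of all genes; 16.4% lower against 15.1%, and 13.1% higher against 15.8%). At an unadjusted p under 0.05 there were 21, against 41.2% of all genes. With median centring this became 10 lower and 2 higher, and with centring on brighter genes 13 lower and 2 higher. Without any one of Krt1-/- epidermis replicate 2, Krt1-/- skin replicates 1 and 3 and Krt1+/+ skin replicates 1 and 2, the count of higher members was 5.

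All 6 arrays of the first columns lay above all 6 of the last columns for 7 members (11.5%, against 5.41% of all genes), and below them for 3 (4.92%, against 2.78%). The 7 were Rpl14, Rpl22l1, Rpl23, Rpl32, Rpl39, Rps20 and Rps3a1, and the 3 were Rps15, Rps26 and Rps9. Rpl32, a large subunit protein, shows how small such a separation could be. It read 13.29, 13.12 and 13.26 on the arrays labelled Krt1-/- epidermis against 13.85, 13.80 and 13.81 in Krt1+/+ epidermis, and 13.70, 13.55 and 13.72 in Krt1-/- skin against 13.38, 13.42 and 13.41 in Krt1+/+ skin.

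**Figure D4:**
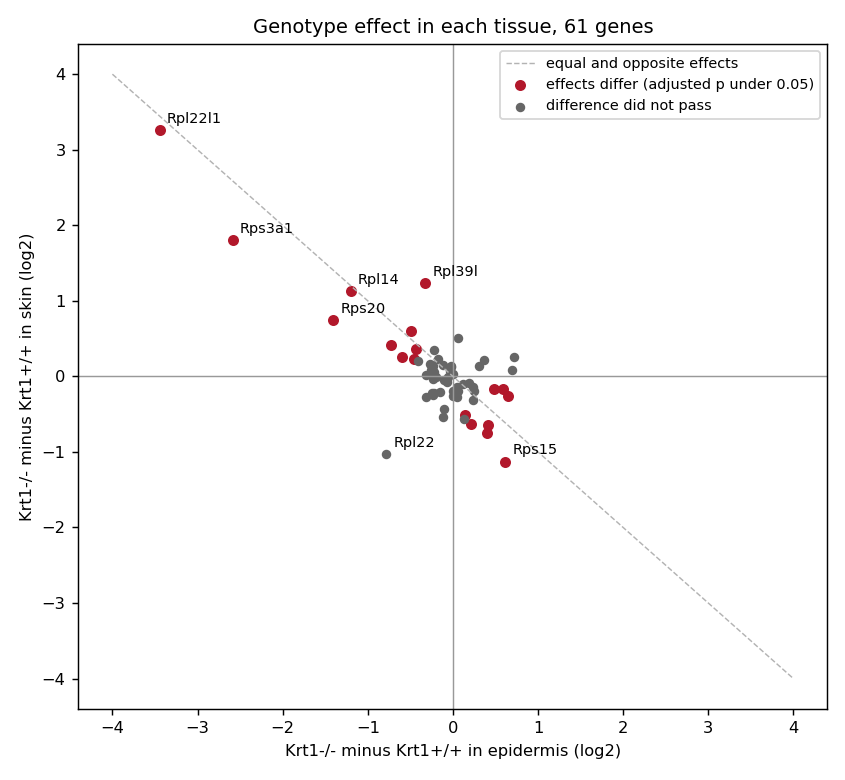
Krt1-/- minus Krt1+/+ in epidermis (horizontal, log2) against the same in skin (vertical, log2) for the 61 genes, with red points where the 2 effects differed (18 genes, adjusted p under 0.05) and a dashed line of equal and opposite effects. Rpl22l1 and Rps3a1 lie far out near that line, and Rpl22 lies below 0 on both axes.

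More than 1 kept probe read each of 18 members, and the probes of a gene did not always agree. In the difference of effects 5 of these 18 genes had probes of opposite sign, and in the genotype average 9. The dimmest of the 4 probes of Rpl23 was −1.89 in epidermis and 1.80 in skin, a difference of −3.69, while its second brightest gave −0.07. A further Rpl23 probe, averaging 9.37, was higher in Krt1-/- epidermis by 0.68 where the brightest fell by 0.72, and Rpl23 was the 1 gene whose probes passed in opposite directions in epidermis. Dim second probes of Rpl4 (−3.60) and Rplp0 (−3.43) and a dim probe of Rpl27a (−1.94) also gave negative differences. The brightest probes of these genes gave −0.41, −0.14 and −0.61. With the dimmest of Rpl23, these 4 dim probes averaged 5.07 to 5.72 on the log2 scale. They were detected on 6 (Rpl4), 6 (Rplp0), 8 (Rpl27a) and 11 (Rpl23) arrays. Their differences thus rest in part on undetected readings and are not fold changes. Whether their arrays lay apart by column set was not tested. The second probe of Rpl38, averaging 7.01, rose by 1.30 in Krt1-/- epidermis and by 1.39 in Krt1-/- skin (average 1.35, adjusted p = 0.00015 when used for the gene), while the bright probe of Rpl38 changed by 0.02. Both probes of Rps9 gave like values, −0.63 and −0.66 in skin. The second probe of Rps2, averaging 13.08, gave 1.12 for the difference where the brightest gave 0.21.

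**Figure D5:**
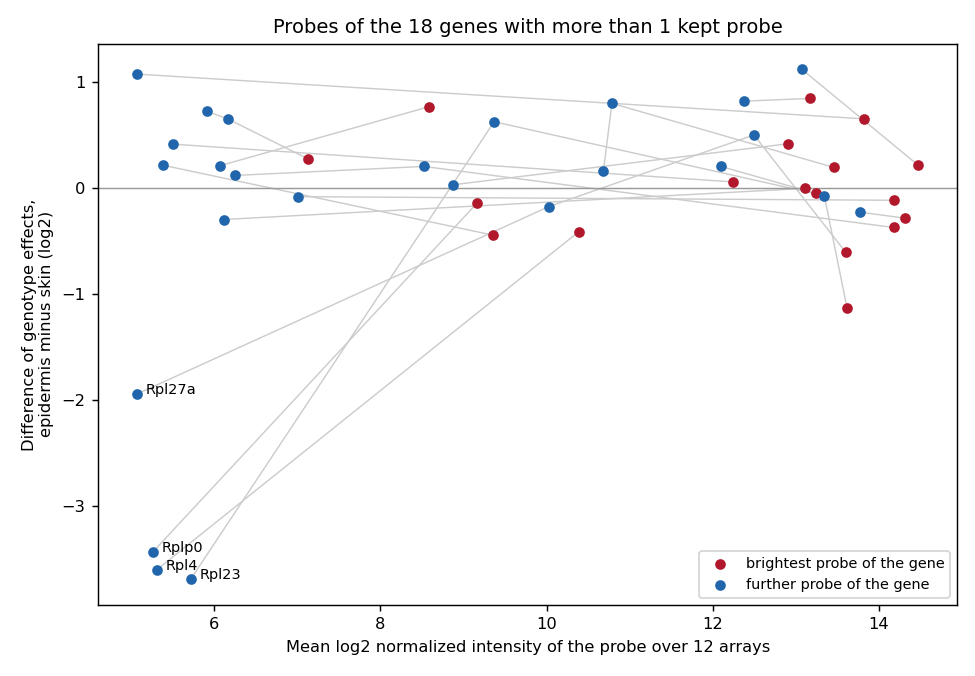
Mean log2 intensity (horizontal) and difference of the genotype effects, epidermis minus skin (vertical, log2), of each kept probe of the 18 genes with more than 1, with lines joining the probes of a gene. The brightest probes (red) lie between −1.14 and 0.84, and 4 further probes (blue), of Rpl23, Rpl4, Rplp0 and Rpl27a, lie between −3.69 and −1.94.

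Skin differed from epidermis in more members than the genotypes did. Averaged over both genotypes, 22 members (36.1%) were lower in skin and 2 (3.28%) higher, where 23.7% and 18.7% of all genes were, and the median member differed by −0.15 against −0.09 for all genes. At an unadjusted p under 0.05 there were 29 members, against 50.2% of all genes. All 6 skin arrays lay below all 6 epidermis arrays for 11 members (18%, against 3.89% of all genes) and above them for 1 (1.64%, against 8.71%). Rpl7a, a large subunit protein, read 6.08, 5.78 and 5.39 in Krt1-/- skin and 5.75, 5.79 and 5.46 in Krt1+/+ skin, against 7.20, 6.76 and 7.24 on the arrays labelled Krt1-/- epidermis and 6.27, 6.66 and 6.19 in Krt1+/+ epidermis. It was lower by 1.01 on the log2 scale, or 2.02-fold (interval −1.34 to −0.69, adjusted p = 0.00013). Rpl30 had 9.36, 9.29 and 8.95 in Krt1-/- skin and 8.73, 8.72 and 8.63 in Krt1+/+ skin, against 9.75, 9.81 and 9.82 on the arrays labelled Krt1-/- epidermis and 9.74, 9.85 and 9.61 in Krt1+/+ epidermis (−0.82, adjusted p = 5.2e-05). For both genes every skin array was below every epidermis array.

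Rps7 (−0.75, adjusted p = 0.0012), Rpl36al, a near copy of the X-linked Rpl36a (−0.66, adjusted p = 0.00081), and Rps6 (−0.58, adjusted p = 0.0023) also lay apart between the tissues. Rpl22l1 (−0.77) passed although its arrays overlapped between tissues. Its tissue difference turned with genotype. The mean was 8.65 in Krt1-/- skin against 6.07 on the arrays labelled Krt1-/- epidermis. In Krt1+/+ it was 5.39 in skin against 9.52 in epidermis. The average thus describes neither genotype, and the values of Rps3a1 given above turned in the same way. The remaining members that passed with lower values were between −0.62 (Rps3a1) and −0.28 (Rps3), and included Rplp0 (−0.37), Rps19 (−0.38), Rps27l (−0.44), a paralog that p53 induces in human cells, and Rps20 (−0.42, a call lost with each centring and with normalization within tissues). The calls of Rps3, Rps3a1, Rps16, Rps27l, Rpl31 and Rplp0 were each lost without at least 1 array. At a least difference of 1.5-fold 6 members stayed lower. With quantile normalization within each tissue 38 members were lower and the median member differed by −0.37, against −0.05 for the median gene. That setting puts the tissues on no common scale, so these values include any offset between them. Keratinocyte markers were lower in skin for 5 of 8 (median −0.77), with summed levels of 51215 to 60034 in Krt1-/- skin and 54283 to 65011 in Krt1+/+ skin, against 56395 to 62295 in Krt1-/- epidermis and 56651 to 69714 in Krt1+/+ epidermis. The 8 fibroblast markers were all higher in skin (median 5.28), with 3742 to 5202 in Krt1-/- epidermis and 4739 to 6941 in Krt1+/+ epidermis beside the skin sums above. All 6 endothelial and all 5 adipocyte markers were higher too (medians 3.32 and 4.30). The part of cell makeup in the lower readings was not tested.

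Rpl3l, the paralog of Rpl3 that is made in heart and skeletal muscle, was the one member with all skin arrays above all epidermis arrays. It read 8.55, 9.85 and 8.72 in Krt1-/- skin and 9.79, 8.49 and 10.53 in Krt1+/+ skin, against 4.68, 4.74 and 4.51 on the arrays labelled Krt1-/- epidermis and 4.60, 4.47 and 4.46 in Krt1+/+ epidermis. It was undetected on all 3 arrays of Krt1+/+ epidermis, and so at least 30.3-fold higher in skin among Krt1+/+ arrays. The log2 difference over both genotypes was 4.74 (interval 4.11 to 5.38, adjusted p = 2.2e-08). Between genotypes in skin it differed by −0.56 (adjusted p = 0.34). Skeletal muscle markers were higher in skin for 7 of 7 (median 6.45). Their summed levels were 43656 to 78158 in Krt1-/- skin and 56854 to 91296 in Krt1+/+ skin, against 463 to 2420 on the arrays labelled Krt1-/- epidermis and 476 to 716 in Krt1+/+ epidermis. Ckm, the muscle creatine kinase, was undetected on all 3 Krt1+/+ epidermis arrays. Rpl3 itself, the general form, differed by 0.03 between tissues (interval −0.18 to 0.24). Averaged over both genotypes, Rpl39l was higher in skin by 0.63 (adjusted p = 0.007), and was undetected on all 6 epidermis arrays. In Krt1+/+ its mean was not higher in skin: 4.38 there, detected on 1 of 3 arrays, against 4.54 in epidermis. In Krt1-/- it was 5.62 in skin against 4.21 in epidermis. Among Krt1-/- arrays it was at least 1.92-fold higher in skin.

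The remaining paralogs moved less. Rpl36al changed by 0.29 with genotype (interval 0.03 to 0.56, adjusted p = 0.1) and Rpl36a by −0.29 (−0.65 to 0.06). Rps27l changed by −0.03 (−0.35 to 0.28), and Rpl7l1 by 0.21 (−0.07 to 0.49). Rps4x, the X-linked form, changed by −0.11 (−0.34 to 0.11) and Rps4l by −0.17 (−0.48 to 0.13). Probes of such near copies may read each other's RNA.

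The factors that build and serve the ribosome were read beside it. Of 42 measured ribosome biogenesis genes, 17 were higher and 1 lower in Krt1-/- in the average over both tissues (median 0.45), where 10.9% and 13.2% of all genes were. Rrp12, a factor of ribosome assembly, rose by 1.04 (2.06-fold, adjusted p = 0.00082). Its values were 9.46, 9.83 and 9.86 on the arrays labelled Krt1-/- epidermis against 8.89, 8.69 and 8.35 in Krt1+/+ epidermis, and 9.94, 9.56 and 8.93 in Krt1-/- skin against 8.53, 8.30 and 8.55 in Krt1+/+ skin. Nhp2, of the ribonucleoproteins that guide pseudouridine formation in ribosomal RNA, rose by 0.94 (adjusted p = 0.0012). Myc, a transcription factor that drives ribosome production, rose by 0.87 (adjusted p = 0.0019), with 1.58 in epidermis and 0.16 in skin, a difference that passed (adjusted p = 0.0046). For each of Rrp12 and Nhp2 every Krt1-/- array lay above every Krt1+/+ array of its tissue. Within epidermis 16 biogenesis genes rose and 7 fell, within skin 14 rose and 1 fell, and 23 were lower in skin than in epidermis and 0 higher (median −0.43). Over all genes 15% were higher and 16.8% lower in Krt1-/- epidermis, 14.4% and 16.2% in Krt1-/- skin, and 18.7% and 23.7% in skin against epidermis.

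Fewer members of the other lists passed. Over all genes 10.9% were higher and 13.2% lower in the genotype average, 24.2% in either direction. In the genotype average 4 of 32 initiation factors rose and 3 fell (median 0.15), led by Eif6, which keeps subunits apart (0.66, adjusted p = 0.0031). Of 8 elongation factors 1 rose and 1 fell. Of 16 other messages with a 5′ TOP motif 0 rose and 3 fell (median −0.30): Vim (−0.83, adjusted p = 0.00061), Nap1l1 (−0.39) and Eif3f (−0.37). Vim changed by 0.30 in epidermis and −1.95 in skin. It is also a fibroblast gene, and was 6.55-fold higher in skin than in epidermis. Of 18 genes of the mTOR pathway and the S6 kinases 5 rose and 1 fell, with the mTOR inhibitor Deptor at 0.93 (adjusted p = 0.0019; 1.68 in epidermis and 0.19 in skin). Of 18 genes of p53 and its targets 4 rose and 1 fell. Pmaip1, a death-promoting target, was 3.32-fold higher (1.73, adjusted p = 5.4e-05), Plk2 2.78-fold and Phlda3 1.79-fold (2.01 in epidermis and −0.32 in skin on the log2 scale), and Mdm2 rose by 0.38 (adjusted p = 0.027), while Bbc3 fell by 0.75.

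Of 73 mitochondrial ribosomal proteins 6 rose and 1 fell in the genotype average (median 0.14). Of 61 structural genes of the respiratory chain 3 rose and 0 fell (median 0.11), where 10.9% and 13.2% of all genes did. Some other translation genes also differed between genotypes in opposite directions in the tissues, where genotype and column set cannot be told apart. In the difference of effects 6 of 32 initiation factors were higher and 5 lower. Of the 16 other 5′ TOP messages 3 were higher and 7 lower, where 15.8% and 15.1% of all genes were. Eif4b, an initiation factor with a 5′ TOP message, read 5.62, 5.56 and 5.89 on the arrays labelled Krt1-/- epidermis against 8.48, 8.79 and 8.71 in Krt1+/+ epidermis, and 7.91, 7.76 and 8.04 in Krt1-/- skin against 5.64, 5.13 and 5.94 in Krt1+/+ skin. For Eif4b all arrays of the first columns were above all of the last, as for 5.41% of all genes. Pabpc1, the poly(A) binding protein, fell by 1.70 in epidermis and rose by 1.12 in skin. Of the 16 messages with a 5′ TOP motif, 1 rose and 7 fell in Krt1-/- epidermis, and 4 rose and 4 fell in Krt1-/- skin, where 15% and 16.8% of all genes did in epidermis and 14.4% and 16.2% in skin.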

How the data were processed

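The authors' non-normalized table holds, for 12 one-colour Illumina arrays, the intensity of each probe on a linear scale. The deposited table also carries a detection p-value per probe and array, per the file headers. A second table deposited by the authors holds intensity values after a normalization that no source names. Slides, scan times and scanner software were not found in labels or headers. Intensities were background-corrected from the detection p-values and quantile normalized (neqc, offset 16) with limma 3.58.1 in R 4.3.3 and taken as log2. Of 45281 probes, 34885 had 1 symbol, 18 several and 10378 none; symbols were updated by gene ID for 34807, by accession for 11, and kept for 67. Filtering kept 21712 probes, 18687 with 1 gene, giving 12099 genes, each read by its brightest kept probe.

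Group means of the 4 groups were modelled in limma with moderated variances (residual degrees of freedom 8, prior 5.39), and 5 contrasts were taken: genotype in each tissue, their difference, their mean, and tissue averaged over genotypes. Members passed at a Benjamini-Hochberg adjusted p under 0.05 over 12099 genes. The fit was tested on simulated data. Members and lists were chosen with earlier results of these data known, so their counts are descriptions. Named were the 5 largest rises and falls per contrast, paralogs, stalk genes, fixed genes of known roles, and the 3 dimmest and brightest. From each list up to 3 genes per contrast were named, with more for p53 and its targets. Rpl5, Rpl11, Rps27, Rps27a, Rpsa, Fau and Rack1 were not analysed here. Rpl3, Rpl28, Rpl36a, Rps4x, the members lost or gained under an alternative, and genes named from their probe pattern or column order were chosen after their values were seen. Alternatives covered background correction, normalization, table, filter, probe choice, variance, arrays in the fit, fold, replicate block and each array left out.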

Additional observations from a re-analysis of the deposited data

Results flagged for a closer look

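The genotype effect differed between epidermis and skin for 18 ribosomal protein genes (limma, adjusted p under 0.05 for the difference). This contrast equals that of the first against the last 6 columns of the deposited tables, so a difference between tissues and one between column sets cannot be told apart. On the log2 scale of epidermis minus skin the difference was −6.70 for Rpl22l1, −4.39 for Rps3a1, −2.33 for Rpl14, −2.14 for Rps20 and −1.57 for Rpl39l. Large subunit genes followed with −1.14 for Rpl23, −1.10 for Rpl27, −0.85 for Rpl32 and −0.80 for Rpl39, and the small subunit gene Rps23 with −0.68. On the other side were Rps15 at 1.74, Rps4l at 1.16, Rps26 at 1.05, Rpl13a at 0.91, Rps9 at 0.84, Rpl7l1 at 0.76, and Rpl35 and Rps19 at 0.65 each.

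Rps20, Rps23 and Rpl39l were undetected on all arrays of at least 1 group, so their differences are not fold changes. Rps23 was detected on 3 arrays in all, Rpl39l on 4 and Rps20 on 6. These genes met the detection filter through the arrays where they were high, so their calls are not independent of it. The calls of Rpl35, Rpl7l1, Rps19 and Rps23 were each lost without 1 of several arrays. Under every alternative that gave 1 value per gene, 11 of the 18 held. Rpl23 was among these, but its probes read on their own differed. The dimmest gave −3.69, while others gave −0.07 (limma, adjusted p = 0.89) and 0.62 (adjusted p = 0.11).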

How the results depend on the processing

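With no background correction, and likewise with the deposited normalized table, the genotype average had 2 members higher and 7 lower. Median centring gave 3 higher and 5 lower in epidermis, 2 lower in skin with a median of 0.22, 2 higher in the difference with a median of −0.18, 1 higher in the genotype average with a median of 0.10, and a tissue median of −0.39. Quantile normalization within each tissue gave 1 higher in the genotype average, 38 lower in skin against epidermis and a tissue median of −0.37. It leaves the tissues on separate scales, so its tissue values include any offset between them. Centring on brighter genes that are not members gave 13 higher and 3 lower in skin with a median of 0.19, 2 higher in the difference with a median of −0.27, 2 higher in the genotype average and a tissue median of −0.34. The genotype average had 1 higher and 2 lower with no detection filter, and 1 higher and 3 lower with trended and robust variance. It had 1 higher with the mean of a gene's probes (epidermis 8 higher), with the dimmest probe (skin 11 higher) and with each probe on its own (epidermis 8, skin 12 and tissue 4 higher). With only the arrays of the comparison 3 were higher in epidermis, and at 1.5-fold 6 were lower between tissues. Rpl30 in skin reversed with its dimmest probe (−0.0067, adjusted p = 0.987). The cause of these changes was not tested, beyond fewer calls at a fold limit. Values are listed here if a count changed by a ratio over 1.5, or to or from 0. A median is listed if it shifted by at least the within-group SD of the member median. By this rule the stricter filter moved 0 of 15 values. It kept 59 members, and Rps23, called in epidermis and in the difference, was not among them.

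Leaving out 1 array at a time gave 1 to 5 higher, 6 to 10 lower and medians of −0.10 to −0.02 in epidermis. In skin it gave 5 to 7 higher, 4 to 7 lower and −0.07 to −0.01. The difference had 5 to 8 higher, 9 to 10 lower and −0.03 to 0.04. The genotype average had 0 to 2 higher, 1 to 2 lower and −0.09 to −0.06, and the tissue average 2 higher, 16 to 22 lower and −0.23 to −0.14. Arrays with the same replicate number did not deviate together (mean correlation 0.002 over 18 pairs; 4 of 12 arrays correlated best with their own number). The fit with the replicate block gave 5 higher and 7 lower in epidermis, 7 and 6 in skin, 7 and 9 in the difference, 0 and 1 in the genotype average, and 2 and 21 between tissues. It lost Rpl27, Rpl39 and Rps23 in epidermis, Rpl29 in skin, Rpl7l1 and Rps23 in the difference and Rps3 between tissues (adjusted p 0.0512 to 0.0678). A block for the column set gives the same averages by construction and was not run apart. Signal limits what these arrays show: 6 of the 61 members were not detected on every array, and 14 read at least 50% of the brightest probe.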
